A study of Mus musculus with 8 samples.

Results

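Vcam1 encodes a cell surface adhesion molecule of the immunoglobulin superfamily, and it was examined in Isl1 knockout embryos beside 7 other adhesion genes of the embryonic mesoderm. These were the integrin chains Itga4, Itgb1 and Itga5, the immunoglobulin superfamily molecules Alcam and Ncam1, and the cadherins Cdh2 and Cdh11. The 8 genes were found by symbol in a table of 20701 gene symbols, and where a symbol had several transcript entries the one kept was chosen by its summed read count over all libraries. That choice mattered for 3 symbols: the kept entry held 8223 reads against 8108 for the next entry of Alcam, 16453 against 16299 for Itga5 and 5496 against 5366 for Ncam1. The symbols were named with earlier results of these embryos known, so the knockout values of Vcam1 describe it and are no independent evidence.

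Each library held the RNA of pharyngeal mesoderm and heart from 1 C57BL/6 mouse embryo at E8.75 (6 somites). There were 4 embryos of genotype Isl1-/-, called knockout here, and 4 wild-type embryos. The LIM-homeodomain factor Isl1 marks second heart field progenitors, and the study set knockout beside wild-type embryos to find the genes that need it. The labels name the genotype without the structure of the allele or a tissue restriction, so all cells of a knockout embryo are read as lacking Isl1. Knockout embryo 2 was labelled total RNA and the other 7 libraries polyA RNA.

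Cells hold on to each other and to the matrix through a few families of surface proteins. Integrins are pairs of an alpha and a beta chain that bind matrix proteins or counter-receptors on other cells. The pair of alpha4 (Itga4) and beta1 (Itgb1) binds Vcam1 as well as fibronectin, whereas alpha5 with beta1 is the classical fibronectin receptor. Cadherins bind their own kind on the neighbouring cell and are tied to actin by catenins. In the embryonic heart, Vcam1 on the myocardium and alpha4 integrin on the epicardium are both needed for the epicardium to attach, and N-cadherin (Cdh2) joins cardiomyocytes. Vcam1 is also widely used to enrich cardiomyocytes from differentiating stem cells.

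Total counts over 1 entry per symbol ran from 18916452 to 26153039 reads per library. Isl1 itself stood at 9.72 to 26.9 CPM (counts scaled to library size with TMM normalization, as counts-per-million) in wild-type and 1.78 to 2.40 CPM in knockout embryos. All 15 cardiomyocyte markers examined were present, with summed levels of 3414 to 5113 CPM in wild-type and 1843 to 2783 CPM in knockout embryos. The dissections also held other tissues, since summed endoderm markers ranged from 387 to 2148 CPM and primitive erythroid markers from 368 to 3082 CPM over the 8 embryos, both highest in knockout embryo 2.

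Vcam1 was lower in every knockout embryo than in any wild-type embryo. Vcam1 (NM_011693, on the minus strand of chromosome 3, 115812938 to 115832606 in mm9) had 31.8, 30.6, 23.7 and 27.3 CPM in wild-type embryos 1 to 4. In knockout embryos 1 to 4 it had 17.0, 19.0, 18.1 and 14.6 CPM. The lowest wild-type embryo, number 3, thus stood above the highest knockout embryo, number 2. Behind these values were 563 to 762 Vcam1 reads in each wild-type and 299 to 458 in each knockout embryo.

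The mean fell from 28.4 ± 3.62 CPM to 17.2 ± 1.89 CPM (SD, n = 4), which left 60.6% of the level found in wild-type embryos. The log2 fold change was -0.72 (SE 0.12, 95% interval -0.99 to -0.45), with an edgeR FDR of 0.0216 over the 14075 genes tested. The call was lost when any 1 of 6 embryos was left out: without wild-type embryo 1, 2 or 4 or knockout embryo 1, 3 or 4 the edgeR FDR lay between 0.0542 and 0.0828, at log2 fold changes of -0.75 to -0.65, while without wild-type embryo 3 it was 0.00759 and without knockout embryo 2 it was 0.0316.

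Y-linked reads were present in 1 of 4 wild-type and 3 of 4 knockout embryos, and with their presence as a covariate the edgeR FDR of Vcam1 was 0.0835 at a log2 fold change of -0.66. Among embryos without Y-linked reads, wild-type embryos 1 to 3 had 23.7 to 31.8 CPM of Vcam1 and knockout embryo 2 had 19.0 CPM. Among embryos with Y-linked reads, wild-type embryo 4 had 27.3 CPM and knockout embryos 1, 3 and 4 had 14.6 to 18.1 CPM. The knockout values were the lower ones on both sides, but each side held only 1 embryo of 1 genotype. The split therefore does not separate genotype from the presence of Y-linked reads.

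**Figure D1:**
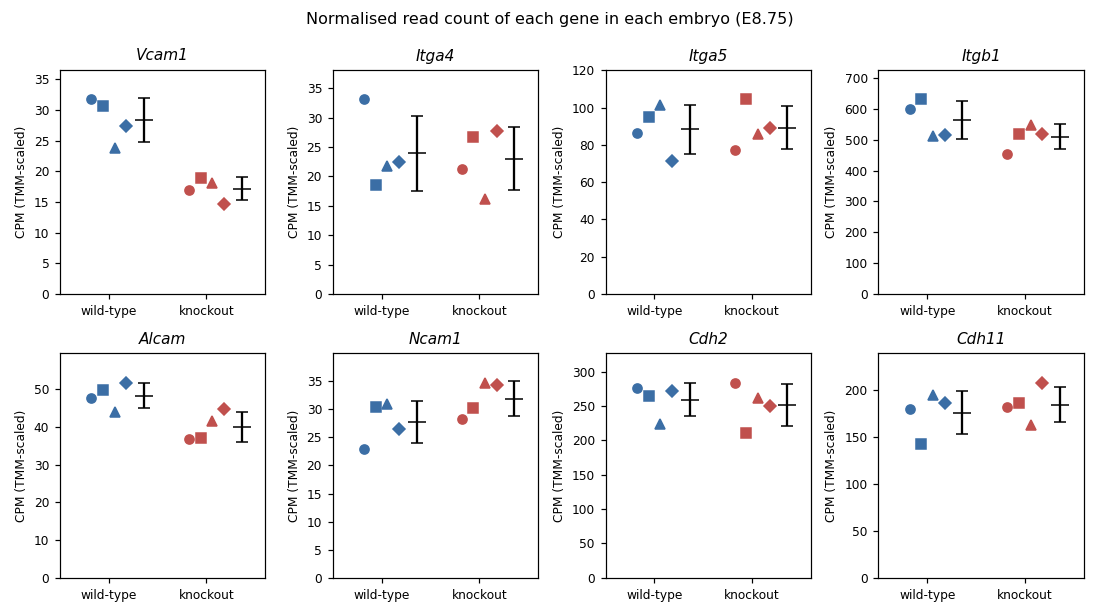
TMM-scaled CPM of Vcam1 and the 7 other adhesion genes in each embryo, with 1 panel per gene and the axis starting at 0. Circles, squares, triangles and diamonds are embryos 1 to 4 of each genotype, blue wild-type and red knockout, and black bars are the mean and SD (n = 4). The wild-type and knockout points are apart for Vcam1, at 23.7 to 31.8 against 14.6 to 19.0 CPM, and overlap in the other 7 panels.

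Of the 8 genes, Vcam1 alone passed the edgeR FDR of 0.05. Across all genes tested 0.973% passed in either direction and 0.867% were lower in the knockout. Vcam1 ranked 86 by p-value among the 14075 genes, and 81 of the 122 genes that fell past the FDR had a larger fold decrease. It was also the single member past the thresholds that the study set (log2 fold changes beyond 0.58 and p-values under 0.05 before adjustment), which 2.26% of genes passed on the lower side. These thresholds were applied here to the edgeR fit, whereas the study used them with DESeq2. Groups that did not overlap, with the knockout lower, were found for 1 of the 8 genes, again Vcam1, against 6.33% of all genes. A lower knockout value with p under 0.05 before adjustment in edgeR was seen for Vcam1 and Alcam, against 10.1% of all genes.

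The receptor chains of Vcam1 were examined next, and neither passed the test. Itga4 (NM_010576, chromosome 2, 79095583 to 79173280), the alpha4 chain, stood at 33.2, 18.5, 21.7 and 22.5 CPM in wild-type and 21.2, 26.7, 16.2 and 27.8 CPM in knockout embryos 1 to 4. Wild-type embryo 1 was the highest of all and knockout embryo 3 the lowest, with the other 6 intermingled. The log2 fold change was -0.06 (SE 0.21, 95% interval -0.53 to 0.41, edgeR FDR 0.907). In fold terms the interval ran from 0.69 to 1.33. The 0.61-fold estimate of Vcam1 lay outside it, but the interval of Vcam1, 0.5 to 0.73, overlapped it. A moderate change of Itga4 in either direction also lay inside it. Itga4 also varied most among embryos of 1 genotype, with a coefficient of variation of 26.7% in wild-type and 23.4% in knockout embryos, against 12.8% and 11% for Vcam1. Exons of Cerkl overlap Itga4 on the opposite strand and reads were counted without strand, but Cerkl as a gene was at 0.0773 to 0.584 CPM.

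Itgb1 (NM_010578, chromosome 8, 131209554 to 131257100), the beta1 chain shared by many integrins, was the most abundant of the 8 genes. Wild-type embryos 1 to 4 had 598, 632, 512 and 514 CPM, and knockout embryos 1 to 4 had 455, 519, 548 and 519 CPM. Only knockout embryo 1 lay below the wild-type range. The log2 fold change was -0.14 (95% interval -0.34 to 0.05, edgeR FDR 0.432).

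Itga5 (NM_001314041, chromosome 15, 103174720 to 103197194), the alpha5 chain of the fibronectin receptor, stood at 86.2, 94.7, 101 and 71.1 CPM in wild-type and 77.2, 105, 85.7 and 89.1 CPM in knockout embryos 1 to 4. The genotypes overlapped almost completely, with a log2 fold change of 0.01 (95% interval -0.25 to 0.28, edgeR FDR 0.962).

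The supply of alpha chains relative to beta1 was compared per base of transcript within each library, which removes the scaling between libraries. Itga4 reached 1.82 ± 0.457% of the Itgb1 level in wild-type and 1.93 ± 0.463% in knockout embryos (SD, n = 4, exact two-sided permutation p = 0.686). For Itga5 the share was 14.9 ± 2.57% and 16.5 ± 1.79% (exact p = 0.343). Alpha4 transcripts were therefore a small fraction of those of beta1 in both genotypes, and alpha5 transcripts a larger one.

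The other immunoglobulin superfamily members were then compared. Alcam (NM_009655, chromosome 16, 52249109 to 52454187) encodes a molecule that binds itself and Cd6. It stood at 47.6, 49.8, 44.0 and 51.7 CPM in wild-type and 36.7, 37.0, 41.7 and 44.8 CPM in knockout embryos 1 to 4. Knockout embryos 1 to 3 lay below every wild-type embryo and knockout embryo 4 overlapped only the lowest one. The log2 fold change was -0.27 (SE 0.09, 95% interval -0.47 to -0.07), with an unadjusted edgeR p-value of 0.0126 and an FDR of 0.173, so Alcam did not pass. Cd6 was too low to be tested.

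Ncam1 (NM_001113204, chromosome 9, 49310257 to 49607027), the neural cell adhesion molecule, is also expressed in early heart and mesoderm. Its levels were 23.0, 30.5, 30.9 and 26.5 CPM in wild-type and 28.3, 30.3, 34.7 and 34.4 CPM in knockout embryos 1 to 4. Knockout embryos 3 and 4 were above all wild-type embryos, yet the log2 fold change of 0.20 did not pass (95% interval -0.05 to 0.46, edgeR FDR 0.397). Of its 4 transcript entries, the shortest, NM_010875 with 4867 bases, held fewer reads, at 39.9 ± 4.44% of the count of the kept entry in wild-type and 41.5 ± 3.15% in knockout embryos (exact two-sided permutation p = 0.571, n = 4). Exons of Gm11149 overlap Ncam1 on the opposite strand, and the level of Gm11149 was not analysed here. The Ncam1 entries share exons, so the share is not an isoform level. St8sia2 and St8sia4 encode the enzymes that add polysialic acid to Ncam1, and neither passed, with log2 fold changes of -0.01 and -0.17 (edgeR FDR 0.958 and 0.732).

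Neither cadherin passed. Cdh2 (NM_007664, chromosome 18, 16747386 to 16967755), N-cadherin of the myocardial junctions, had 276, 265, 223 and 272 CPM in the wild-type embryos and 284, 210, 261 and 250 CPM in the knockout embryos, in the order of their numbers. Its highest and its lowest value both belonged to knockout embryos, numbers 1 and 2, and the log2 fold change was -0.05 (95% interval -0.27 to 0.18, edgeR FDR 0.844). Cdh11 (NM_009866, chromosome 8, 105156895 to 105309011), a cadherin of loose mesenchyme, stood at 179, 143, 195 and 186 CPM in wild-type and 182, 186, 162 and 208 CPM in knockout embryos. The genotypes overlapped, with a log2 fold change of 0.07 (95% interval -0.16 to 0.30, edgeR FDR 0.769).

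**Figure D2:**
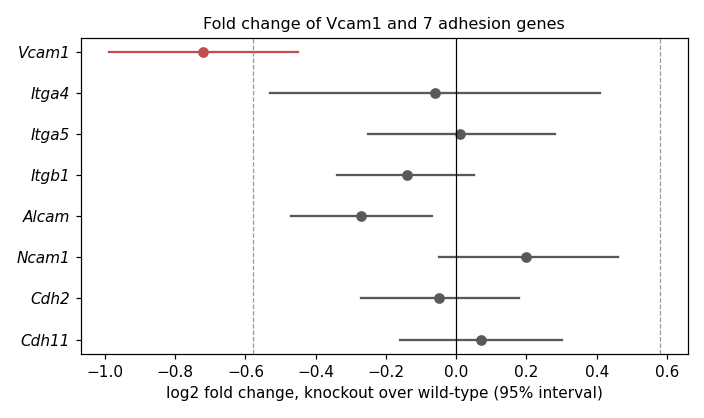
Log2 fold change, knockout over wild-type, of the 8 genes with 95% intervals from the edgeR fit. Red marks the gene past an FDR of 0.05, the solid line is 0 and dashed lines are at 0.58 in either direction. Vcam1 lies at -0.72, and the intervals of the other 7 genes stay inside the dashed lines.

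A difference between fold changes was tested on its own, as the log2 ratio of Vcam1 reads to the reads of each other gene in the same library. All 7 ratios share Vcam1, whose difference was known when the genes were chosen, so they are not independent and describe these embryos. Against Itgb1 the ratio was -4.23, -4.37, -4.43 and -4.23 in wild-type and -4.74, -4.77, -4.92 and -5.15 in knockout embryos 1 to 4, a decrease in the mean from -4.32 ± 0.10 to -4.89 ± 0.19 (SD, n = 4, exact two-sided permutation p = 0.0286). The ratios to Itga5, Alcam, Ncam1, Cdh2 and Cdh11 were likewise apart between the genotypes, with mean differences of -0.74, -0.45, -0.93, -0.67 and -0.79 and the same exact p of 0.0286, the smallest possible. The ratio to Itga4 gave -0.06, 0.73, 0.13 and 0.28 in wild-type and -0.32, -0.49, 0.16 and -0.93 in knockout embryos. Knockout embryo 3 fell inside the wild-type range and also had the lowest Itga4 level, and the mean difference of -0.66 did not pass (exact permutation p = 0.0857). Vcam1 was lower relative to 6 of the 7 genes, but its level alone was already apart between the genotypes. For what share of all genes tested the ratio would also be apart was not computed, so the count is no result about these genes. A fall of Vcam1 relative to its own alpha chain was not shown at this spread.

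**Figure D3:**
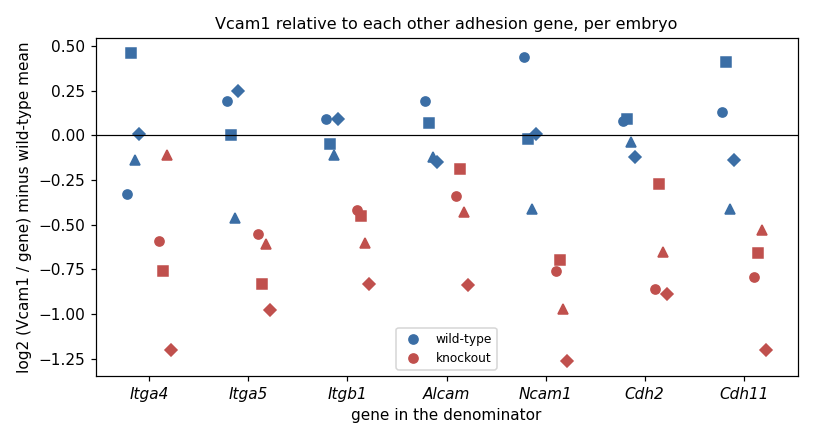
Log2 ratio of Vcam1 reads to the reads of each other gene in each embryo, drawn as the difference from the wild-type mean of that ratio. Marker shapes are embryos 1 to 4, blue wild-type and red knockout. Knockout points lie below all wild-type points in 6 columns, and overlap them for Itga4, where the mean difference is -0.66.

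Levels between genes were compared as RPKM, read counts scaled for both transcript length and library size. Over all 8 embryos the order of means was Itgb1 at 76.1, Cdh2 at 31.3, Cdh11 at 21.0, Itga5 at 11.9, Alcam at 5.20, Vcam1 at 3.96, Ncam1 at 2.54 and Itga4 at 1.42 RPKM. The ranges of neighbours did not overlap from Itgb1 down to Alcam, whereas those of Alcam and Vcam1, of Vcam1 and Ncam1, and of Ncam1 and Itga4 did. The place of Vcam1 in this order differed by genotype. In wild-type embryos Vcam1 spanned 4.09 to 5.39 RPKM, overlapping Alcam at 5.12 to 6.14 RPKM and above Ncam1 at 1.89 to 2.59 RPKM. In knockout embryos Vcam1 spanned 2.63 to 3.33 RPKM, below Alcam at 4.37 to 5.43 RPKM and overlapping Ncam1 at 2.48 to 3.01 RPKM. Per length, Vcam1 transcripts were at 356 ± 87.8% of the Itga4 level in wild-type and 229 ± 71.8% in knockout embryos (SD, n = 4). They were at 152% or more in every embryo. This order rests on the annotated lengths of 3387 bases for Vcam1 and 9802 bases for Itga4. In reads alone Vcam1 was below Itga4 in wild-type embryo 1 and knockout embryos 1, 2 and 4.

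Cardiomyocyte markers were lower in the knockout, as Vcam1 was. These markers, which include the sarcomere genes Tnnt2, Myh6, Myh7 and Actc1, were lower in the knockout for 15 of 15 genes, and 12 passed the edgeR FDR. Of these 12 calls 5 were left without wild-type embryo 1, 2 or 4 or knockout embryo 4, 7 without knockout embryo 1, 8 without knockout embryo 2 or 3 and 12 without wild-type embryo 3, with all 12 genes lower in each of these fits. Over the 15 markers the log2 fold changes had a median of -1.0, against 0.01 over all genes tested. Tnnt2, cardiac troponin T, fell from 252 ± 21.1 to 135 ± 27.0 CPM (log2 fold change -0.90, edgeR FDR 0.00994), and Myh7, a cardiac myosin heavy chain, from 465 ± 35.1 to 205 ± 46.5 CPM (-1.18, edgeR FDR 0.00453). The remaining 3, Myl2, Ttn and Nppa, had log2 fold changes of -0.88, -1.38 and -1.21 (edgeR FDR 0.145, 0.0549 and 0.238). In whole tissue, fewer cells of a type and less RNA per cell cannot be told apart.

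The summed marker level was 5113, 5029, 3414 and 4708 CPM in wild-type and 2438, 1843, 2783 and 2143 CPM in knockout embryos 1 to 4 (exact two-sided permutation p = 0.0286, n = 4). Wild-type embryo 3 was the lowest wild-type embryo for both the markers and Vcam1. In the knockout the orders differed: embryo 2 had the lowest marker sum and the highest Vcam1 level, 19.0 CPM. Vcam1 lay 2.61 ± 0.19 log2 units below the mean log2 CPM of the markers in wild-type and 2.36 ± 0.31 below it in knockout embryos (SD, n = 4, exact two-sided permutation p = 0.229). The part of cardiomyocyte content in the fall of Vcam1 was not tested.

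**Figure D4:**
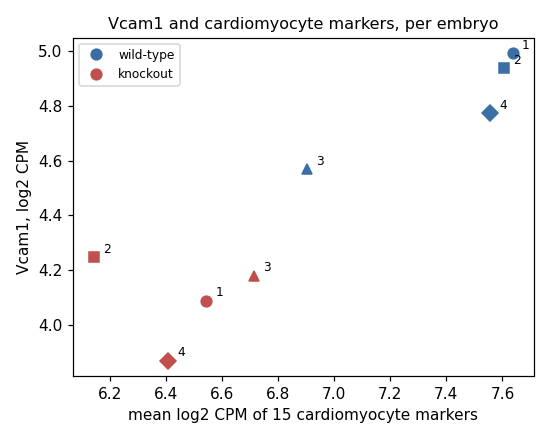
Vcam1 log2 CPM against the mean log2 CPM of 15 cardiomyocyte markers in each embryo, blue wild-type and red knockout, numbered by embryo. Knockout embryos lie at 6.14 to 6.71 on the marker axis and wild-type embryos at 6.90 to 7.64, and wild-type embryo 3 lies closest to the knockout embryos on both axes.

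Markers of other tissues that may carry Vcam1 or alpha4 integrin were read in the same embryos. Of 12 endothelial markers 0 passed the edgeR FDR and 2 had p-values under 0.05 before adjustment, against 17.4% of all genes. These 2 were Emcn and Nfatc1, both lower in the knockout at log2 fold changes of -0.42 and -0.40 (edgeR FDR 0.229 and 0.235). Over the 12 markers the median log2 fold change was -0.10, with 9 lower and 3 higher. Summed levels were 419 to 545 CPM in wild-type and 348 to 487 CPM in knockout embryos. Of 9 proepicardial and epicardial markers tested 0 passed, also before adjustment at 0.05 (0 genes), with a median of 0.28 and sums of 100.3 to 246 and 146 to 194 CPM. Pharyngeal and second heart field mesoderm markers had a median of 0.03 over 9 genes tested, with 0 past the FDR and 2 under 0.05 before adjustment. These 2 went in opposite directions. Tbx1 had a log2 fold change of 0.98 (edgeR FDR 0.248), and Fgf10 one of -0.55 with the groups apart (FDR 0.148). White blood cell and megakaryocyte markers, whose cells use alpha4 integrin, summed to 9.51 to 17.7 CPM in all, and of the 9 listed Ptprc, Pf4 and Gp9 were under 0.1 CPM on average. Itga2b, the integrin chain of megakaryocytes, was the highest at 5.77 ± 1.97 CPM in wild-type and 5.99 ± 1.41 CPM in knockout embryos, and Cd68 of macrophages had 4.18 ± 0.513 and 2.80 ± 0.0582 CPM, with the groups apart (edgeR FDR 0.094). No gene of the endoderm, erythroid, neural or neural crest lists passed the FDR, with medians of 0.12, 0.43, 0.10 and 0.13. Estimates were higher in the knockout for 7 of 10 endoderm, 8 of 8 erythroid, 7 of 10 neural and 7 of 7 neural crest genes. Genes of 1 list can vary together, so these counts are not independent, and the median over all genes tested was 0.01. The summed levels of each list overlapped between the genotypes (exact two-sided permutation p = 0.543, 0.343, 0.886 and 0.343 in the same order). Under 0.05 before adjustment were Hhex of the endoderm list, at a log2 fold change of -0.65 (edgeR FDR 0.093), and Hes5 of the neural list, at 1.18 (FDR 0.0683). Both were named after their values were seen, as were Emcn, Nfatc1, Tbx1, Fgf10, Itga2b and Cd68. The parts of all these markers in the levels of the adhesion genes were not tested.

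The wider adhesion families were then read from the same fit. Beside the 8 genes, 117 integrin chains, ligands and adaptors, immunoglobulin superfamily molecules, cadherins, catenins and their partners were listed, and 99 were expressed enough to be tested. None of the 99 passed the edgeR FDR, against 0.973% of all genes tested. Before adjustment 10 of the 99 had p-values under 0.05, against 17.4% of all genes tested. Of these 10, 4 were higher in the knockout (Tns3, Cadm4, Cdh22 and Arvcf) and 6 lower (Itga6, Itga7, Itgb3, Thbs1, Fermt2 and Itgb1bp2), named after their values were seen. Under the Wald test of DESeq2 1 of the 99 passed, against 709 of the 14075 genes tested. This was Itgb1bp2, which encodes the muscle protein melusin that binds beta1 integrin (log2 fold change -0.72, adjusted p 0.0303, edgeR FDR 0.121). The 99 genes were balanced, 50 higher and 49 lower with a median of 0.00, and 2 of them had a larger estimated fold decrease than Vcam1, without passing. These, also named after their values were seen, were Itga7 and Ctnna3, the alpha-T-catenin of heart muscle, at 1.41 ± 0.584 CPM in wild-type and 0.816 ± 0.329 CPM in knockout embryos (log2 fold change -0.80, edgeR FDR 0.363).

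Among the other integrin chains, 13 alpha and 5 beta chains were tested, with median log2 fold changes of 0.00 and 0.21. Itga6, a laminin receptor chain, stood at 184 ± 19.6 CPM in wild-type and 157 ± 18.8 CPM in knockout embryos (log2 fold change -0.23, edgeR FDR 0.282), and Itgb5, a beta chain that pairs with alpha v, at 49.9 ± 8.09 and 58.0 ± 4.38 CPM (0.22, FDR 0.349). Chosen after their values were seen, the chains with the lowest estimates were Itga7, the laminin receptor chain of muscle, at -0.87 (edgeR FDR 0.15) on a low level of 1.39 against 0.764 CPM, and Itgb3 at -0.67 (FDR 0.157).

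The other ligands of alpha4 and alpha5 integrins did not pass either. Fn1, fibronectin, was the most abundant at 1415 ± 268 CPM in wild-type and 1300 ± 287 CPM in knockout embryos (SD, n = 4, log2 fold change -0.12, edgeR FDR 0.761). Emilin1, a matrix protein bound by alpha4 integrin, had a log2 fold change of 0.05 (edgeR FDR 0.859), and Madcam1, a ligand of alpha4 with beta7, was too low to be tested. Of 25 intracellular adaptors tested the median was 0.06. Ilk, integrin-linked kinase, and Actn4, an actin crosslinker, had log2 fold changes of -0.06 and -0.02 (edgeR FDR 0.697 and 0.936).

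The other immunoglobulin superfamily molecules had a median log2 fold change of -0.01 over 24 genes tested. Cadm1 and Jam3, the most abundant per length, had log2 fold changes of -0.03 and -0.08 (edgeR FDR 0.882 and 0.767). The other classical cadherins had a median of 0.16 over 15 genes tested. Cdh1, the epithelial cadherin, stood at 111 ± 29.2 and 124 ± 27.6 CPM (log2 fold change 0.16, edgeR FDR 0.724) and Cdh5, the endothelial one, at 92.8 ± 18.5 and 77.5 ± 11.7 CPM (-0.26, FDR 0.403). Catenins had a median of -0.05 over 10 genes tested, with Ctnna1 at -0.08 and Ctnnb1 at 0.07 (edgeR FDR 0.583 and 0.517).

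**Figure D5:**
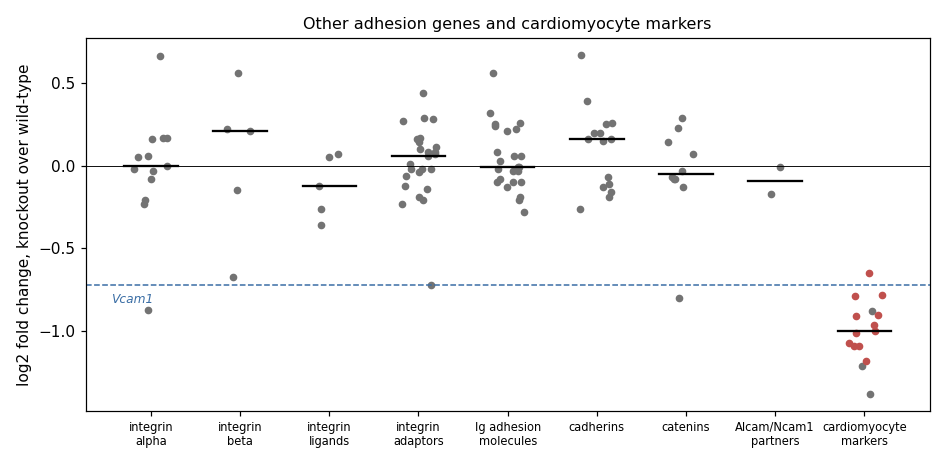
Log2 fold change, knockout over wild-type, of each tested gene of the other adhesion families and of the cardiomyocyte markers, with the 8 adhesion genes of the report left out. Each point is 1 gene, red where the edgeR FDR is under 0.05, black bars are medians, and the dashed line marks Vcam1 at -0.72. The adhesion families centre between -0.12 and 0.21 with no red point, while the cardiomyocyte markers centre at -1.0 with 12 red points. Of all genes tested 0.973% passed that FDR.

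The genes whose pattern over the 8 embryos was most like that of Vcam1 were found by Pearson correlation of log2 CPM among 13128 other genes, given as a description since all points share libraries. They were Trnt1 (r = 0.988), which adds the end of tRNAs, Polr1e (0.988), a subunit of RNA polymerase I, Tpm1 (0.987), a tropomyosin of muscle, Nup93 (0.987), a nuclear pore protein, and Mrps23 (0.986), a mitochondrial ribosomal protein. Of these, Polr1e and Tpm1 fell past the edgeR FDR, with log2 fold changes of -0.45 and -0.50 (FDR 0.0389 and 0.0239). Among the 7 other adhesion genes the correlation with Vcam1 was highest for Alcam (0.699) and Itgb1 (0.67), near 0 for Itga5 (-0.044) and Itga4 (0.092), and lowest for Ncam1 (-0.681).

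After the mean of each genotype was subtracted, the order changed. The correlation with Vcam1 was then -0.128 for Alcam, 0.582 for Itgb1, 0.023 for Itga4 and -0.664 for Cdh11. The most similar genes were then 1110008F13Rik (0.965), Map2k4 (0.964), Rpl36 (0.964), Ssu72 (0.964) and Nifk (0.961), and none of these 5 passed the edgeR FDR. The likeness of Alcam to Vcam1 over the 8 embryos was thus not seen within the genotypes, while the correlation of Itgb1 changed less. Neither gene stood out, since many genes were more like Vcam1. Among the 13128 genes Alcam ranked 1790 and Itgb1 1972 over the 8 embryos, and Itgb1 ranked 2200 within the genotypes.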

How the data were processed

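RNA of single embryos was sequenced by the authors, mapped to mm9 with STAR and counted over the exons of RefSeq transcripts on both strands with HOMER, and the deposited counts were raw reads per transcript. The authors computed the deposited RPKM in edgeR, from transcript lengths also in the table. Tool versions were not given in the sources used here. The deposited fold changes and p-values of the authors' own comparison were not used.

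The entry with the highest summed count was kept per symbol. Counts were filtered with filterByExpr, scaled by TMM and fitted with the quasi-likelihood test of edgeR 4.0.16 in R 4.3.3, with genotype as the single term. Tests were two-sided, with Benjamini-Hochberg adjustment over all genes fitted (FDR, threshold 0.05). Alternatives used DESeq2 1.42.0, limma 3.58.1, other filters and covariates, and fits without 1 embryo. Replicates were separate embryos. Reads carried no molecular identifiers, so read numbers show counting precision only. Positions came from GENCODE on NCBIM37 (mm9).

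Named beside the 8 genes were Isl1 and some of the cardiomyocyte markers past the FDR. For adhesion lists with no other gene past it, the 2 most abundant genes per length were named. The 5 genes most like Vcam1 by each measure were also named. Other genes were named outside this rule, among them those marked as named after their values were seen. The genes and lists were chosen with earlier results of these data known.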

Additional observations from a re-analysis of the deposited data

How the results depend on the processing

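The log2 fold change of Vcam1 stayed negative in all 17 alternatives, from -0.80 to -0.53, and passed the FDR in 9 of them. It did not pass with Y-linked reads as a covariate (-0.66) or with the replicate block (-0.72, FDR 0.0571), although the numbers were not taken to pair the embryos: same-numbered embryos deviated from their group means at correlations of 0.0355 to 0.559 across genes, and 1 of 4 wild-type embryos correlated best with the knockout embryo of its own number. Over the 8 fits without 1 embryo it ran from -0.80 to -0.65 and passed in 2. The causes were not tested. Of the 12 cardiomyocyte marker calls 5 passed with the replicate block, 7 with limma on log2(RPKM + 1) and 10 with limma-voom or the Y-linked covariate. None of the 7 other adhesion genes passed in any alternative. The ratio of Vcam1 to Itga4 differed by -0.53 on log2(RPKM + 1) and there passed (exact permutation p = 0.0286). Itga4 lay at 0.995 to 1.94 RPKM, near the added 1, which narrows its spread on that scale. The 137 genes past the FDR became 76 with the replicate block, 709 with DESeq2 and 70 to 490 without 1 embryo, the highest count being that without wild-type embryo 3.

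Estimates near 0 changed sign. With limma on log2(RPKM + 1) they were 0.01 for Cdh2, 0.00 for Itga4, 0.02 for Cadm1, 0.04 for Actn4 and 0.03 for St8sia2. With the Y-linked covariate they were 0.04 for Itga4, 0.09 for Fn1 and 0.08 for Actn4, and with a mean CPM of at least 5 they were 0.01 for Actn4 and St8sia2. Without 1 embryo the ranges were -0.16 to 0.14 for Itga4, -0.08 to 0.09 for Itga5, -0.11 to 0.04 for Cdh2, -0.02 to 0.13 for Cdh11, -0.23 to 0.00 for Fn1, -0.03 to 0.16 for Emilin1, -0.17 to 0.01 for Jam3, -0.08 to 0.03 for Cadm1, -0.08 to 0.02 for Actn4 and -0.08 to 0.04 for St8sia2.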
